A study of Mus musculus with 7 samples.

Results

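The genes described here are 9 members of the bone morphogenetic protein (BMP) pathway, *Bmp4*, *Bmp7*, *Bmpr1a*, *Smad6*, *Bambi*, *Id1*, *Id2*, *Id3* and *Id4*. They were taken as a named list and matched by symbol to the Ensembl identifiers of the deposited tables, and all 9 were found among 29267 genes. RNA was measured in 7 libraries, 1 for each group, so there are no replicates. The sorted cells (passage 0), named mES-Oct4GFP+ and mES-Oct4GFP- after one medium and 5C-Oct4GFP+ and 5C-Oct4GFP- after the other, came from OG2 mouse embryonic fibroblasts. These carry GFP under the *Oct4* promoter and its distal enhancer. Reprogramming used retroviral *c-Myc*, *Klf4*, *Oct4* and *Sox2* with either mES or 5C medium, and cells were sorted by GFP on day 15. The 5C-Oct4GFP+ (naive) and 5C-Oct4GFP+ (primed) libraries were made from sorted 5C-Oct4GFP+ cells moved to naive or primed medium, and R1 ESCs-primed were primed cells induced on feeder fibroblasts from the mouse embryonic stem cell line R1. The labels put these last 3 libraries at passage 20. The figure legends describe 3 days in naive or primed medium. The legend that covers the RNA comparison adds that the cells obtained were then kept for further passages, as in the labels. Other legends mention only the 3 days, so the length of culture is not fully certain. It cannot be told apart from the medium in either conversion. The mES medium holds fetal bovine serum, LIF and vitamin C. The 5C medium is serum free, with N2, basic FGF, LIF and vitamin C. The naive medium holds LIF, vitamin C and inhibitors of MEK and GSK3. For primed cells an induction medium with basic FGF and activin A and a maintenance medium with inhibitors of GSK3 and Wnt signalling are listed. No BMP is listed in any of these media, but what the serum holds is not stated. Primed cells were maintained on plates coated with fetal bovine serum.

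BMP ligands bind a pair of serine-threonine kinase receptors, which phosphorylate SMAD1, SMAD5 and SMAD9. With SMAD4 these proteins switch on direct targets, of which the *Id* genes are the best known. ID proteins hold a helix-loop-helix without a DNA-binding part and keep E proteins from binding DNA. In mouse embryonic stem cells, BMP and Id proteins are known to act beside LIF to hold back neural differentiation, and in the embryo BMP4 patterns the gastrulating epiblast.

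The *Id* promoters are shown because these 4 genes varied most among the members and 3 of them varied together (values below). RefSeq (GRCm38.p6) gives a window from 250 bases before to 50 bases after the gene start for 6 of the 9 genes, among them *Id2*, *Id3* and *Id4*. Capitals mark GGCGCC, a GC-rich element that BMP SMADs are known to bind, and CAGAC or its reverse complement GTCTG, the SMAD box. Both were searched on both strands, and no matches overlapped. The windows are chr12:25096043-25096342 (minus strand), chr4:136143572-136143871 (plus strand) and chr13:48260866-48261165 (plus strand), each written 5′ to 3′ along its gene. They are placed on the RefSeq start, which differs from the outer end of the GENCODE gene given with the levels, so none of these 3 windows spans that end.
Id2: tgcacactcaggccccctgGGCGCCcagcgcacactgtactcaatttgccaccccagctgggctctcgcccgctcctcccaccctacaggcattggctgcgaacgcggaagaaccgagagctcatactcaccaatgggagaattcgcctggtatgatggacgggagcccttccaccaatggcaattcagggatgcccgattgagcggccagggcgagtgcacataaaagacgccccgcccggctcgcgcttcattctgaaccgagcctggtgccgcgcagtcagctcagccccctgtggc
Id3: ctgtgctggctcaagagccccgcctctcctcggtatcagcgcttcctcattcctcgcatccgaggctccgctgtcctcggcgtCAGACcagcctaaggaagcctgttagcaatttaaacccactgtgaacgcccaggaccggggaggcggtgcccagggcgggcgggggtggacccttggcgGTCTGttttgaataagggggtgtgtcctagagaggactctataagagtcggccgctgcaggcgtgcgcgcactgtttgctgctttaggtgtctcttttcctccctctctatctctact
Id4: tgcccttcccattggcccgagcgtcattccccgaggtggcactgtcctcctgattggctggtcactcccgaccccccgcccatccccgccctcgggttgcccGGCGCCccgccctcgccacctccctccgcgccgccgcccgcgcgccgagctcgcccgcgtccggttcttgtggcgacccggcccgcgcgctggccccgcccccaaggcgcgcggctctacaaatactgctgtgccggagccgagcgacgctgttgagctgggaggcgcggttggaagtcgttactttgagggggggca
The *Id2* and *Id4* windows each held 1 GGCGCC and no CAGAC, and the *Id3* window held 2 CAGAC and no GGCGCC. The *Bmpr1a* window also held 1 GGCGCC, and those of *Bmp4* and *Smad6* held neither element. *Id1* had no window here. Of 32851 RefSeq promoter windows of the same length, 11.9% held GGCGCC and 49.6% held CAGAC. The *Id2* element lies at bases 20 to 25 of the window, the *Id4* element at bases 103 to 108, and the *Id3* elements at bases 84 to 88 and 183 to 187. These matches are a description of the letters only.

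Levels are in TPM, a share of all transcripts that corrects for gene length, and differences are of log2(TPM + 1). A gene was called higher or lower at 2-fold or more on that scale, among genes with at least 1 TPM in either library. The ratio of a gene between 2 libraries has an exact Clopper-Pearson 95% interval from its rounded expected counts. It covers counting error only. Each group has 1 library, so variation among cultures was not measured and no difference could be tested. The expected counts of a library summed to between 6108252 and 11496615.

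The sort and the media were first checked against marker genes. *Nanog* was at 697, 253 and 735 TPM for mES-Oct4GFP+, 5C-Oct4GFP+ and 5C-Oct4GFP+ (naive) cells and at 17.1 TPM for mES-Oct4GFP- cells, but it was at 120 TPM for 5C-Oct4GFP- cells, near the 118 and 131 TPM of 5C-Oct4GFP+ (primed) and R1 ESCs-primed. *Pou5f1*, which encodes Oct4, went against the sort in mES medium, at 1321 TPM in the GFP+ and 3640 TPM in the GFP- cells, and was at 2429 and 1534 TPM in those of 5C medium. Retroviral and endogenous *Pou5f1* reads cannot be told apart here. The 7 primed markers were *Cer1*, *Dnmt3b*, *Fgf5*, *Foxa2*, *Lef1*, *Otx2* and *T*. *Fgf5* was at 175 and 139 TPM for 5C-Oct4GFP+ (primed) and R1 ESCs-primed and at most 19.0 TPM elsewhere. *Otx2* was also high in 5C-Oct4GFP+ cells (189 TPM), above the 134 TPM of R1 ESCs-primed. *Lef1* was highest in naive and mES-Oct4GFP+ cells, at 45.7 and 43.9 TPM. Of 6 naive markers, 5 were called higher in Oct4GFP+ than Oct4GFP- cells of each medium. *Klf4*, also a retroviral factor, was called lower, with 1613 and 1512 TPM in mES-Oct4GFP- and 5C-Oct4GFP- cells. The 8 fibroblast markers (*Col1a1*, *Col1a2*, *Col3a1*, *Thy1*, *Prrx1*, *Twist1*, *Twist2*, *Pdgfra*) summed to 550 TPM for mES-Oct4GFP- and 247 TPM for 5C-Oct4GFP- cells. The sums were 209 TPM for R1 ESCs-primed, 75.4 TPM for 5C-Oct4GFP+ (primed) and between 7.72 and 12.9 TPM in the other 3 libraries. The 5 primitive endoderm markers (*Gata4*, *Gata6*, *Sox17*, *Sox7*, *Dab2*) summed to 167 TPM for mES-Oct4GFP- cells and 18.5 TPM for 5C-Oct4GFP- cells. The 5 trophoblast markers (*Cdx2*, *Elf5*, *Eomes*, *Gata3*, *Krt7*) summed to 196 and 9.43 TPM in the same order, of which *Krt7* alone gave 176.5 and 4.68 TPM. *Cdx2* was higher in mES-Oct4GFP+ (10.57 TPM) than in mES-Oct4GFP- cells (1.45 TPM). In 5C-Oct4GFP+ (primed) and R1 ESCs-primed the primitive endoderm sums were 101 and 71.6 TPM. The trophoblast sums there were 99.9 and 125 TPM, mostly of *Eomes*. In these primed libraries *T* was at 155 and 374 TPM and *Foxa2* at 82.9 and 106 TPM, so the list names are not taken as cell types. In the Oct4GFP+ and naive libraries the primitive endoderm sums lay between 3.13 and 10.2 TPM and the trophoblast sums between 11.2 and 17.7 TPM. In bulk RNA, fewer cells of a type cannot be told apart from less RNA per cell.

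*Id1* (ENSMUSG00000042745, chromosome 2, 152736251 to 152737410, GRCm38) had the widest range of the 9 genes. It was at 414 TPM for mES-Oct4GFP-, 391 TPM for 5C-Oct4GFP-, 98.2 TPM for 5C-Oct4GFP+, 69.0 TPM for 5C-Oct4GFP+ (primed), 68.6 TPM for R1 ESCs-primed, 4.51 TPM for 5C-Oct4GFP+ (naive) and 4.19 TPM for mES-Oct4GFP+ cells. Both Oct4GFP- fractions stood at the top, and the naive and mES-Oct4GFP+ cells stood at the bottom, with 19 and 12 reads on the gene. The ratio of highest to lowest was 98.8 (exact 95% interval 56.5 to 192). Neighbouring levels whose ratio did not leave 1 were the pair at the top, the pair of primed libraries and the pair at the bottom.

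*Id2* (ENSMUSG00000020644, chromosome 12, 25093799 to 25097140) was at 137 TPM for mES-Oct4GFP-, 113 TPM for 5C-Oct4GFP-, 80.8 TPM for 5C-Oct4GFP+, 35.4 TPM for R1 ESCs-primed, 31.6 TPM for 5C-Oct4GFP+ (primed), 11.8 TPM for mES-Oct4GFP+ and 11.5 TPM for 5C-Oct4GFP+ (naive) cells. The order was that of *Id1* apart from swaps within the primed pair and within the lowest pair, and within each of these pairs the interval of the ratio held 1. Highest over lowest gave 11.9 (9.22 to 15.6).

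*Id3* (ENSMUSG00000007872, chromosome 4, 136143497 to 136145755) was at 248 TPM for mES-Oct4GFP-, 228 TPM for 5C-Oct4GFP-, 114 TPM for 5C-Oct4GFP+ (primed), 91.3 TPM for 5C-Oct4GFP+, 84.4 TPM for R1 ESCs-primed, 41.1 TPM for 5C-Oct4GFP+ (naive) and 17.9 TPM for mES-Oct4GFP+ cells. The naive cells stood above the mES-Oct4GFP+ cells beyond counting error, which was not so for *Id1*, *Id2* and *Id4*. The ratio of highest to lowest was 13.8 (10.8 to 18.1).

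*Id4* (ENSMUSG00000021379, chromosome 13, 48261228 to 48266026) was at 46.5 TPM for 5C-Oct4GFP-, 35.6 TPM for mES-Oct4GFP-, 9.38 TPM for 5C-Oct4GFP+, 4.92 TPM for mES-Oct4GFP+, 4.54 TPM for 5C-Oct4GFP+ (naive), 3.91 TPM for 5C-Oct4GFP+ (primed) and 1.97 TPM for R1 ESCs-primed. It was lowest in R1 ESCs-primed, with 12 reads, and its highest to lowest ratio was 23.6 (13.4 to 46.3). From mES-Oct4GFP+ through naive to 5C-Oct4GFP+ (primed) cells, neighbours did not differ beyond counting error. An annotated antisense gene, *A330033J07Rik*, overlaps *Id4* and was at most at 0.57 TPM. Reads of both genes cannot be told apart without strand. The antisense genes that overlap *Bmpr1a* and *Bmp4* were at most at 1.11 and 0.96 TPM.

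**Figure D1:**
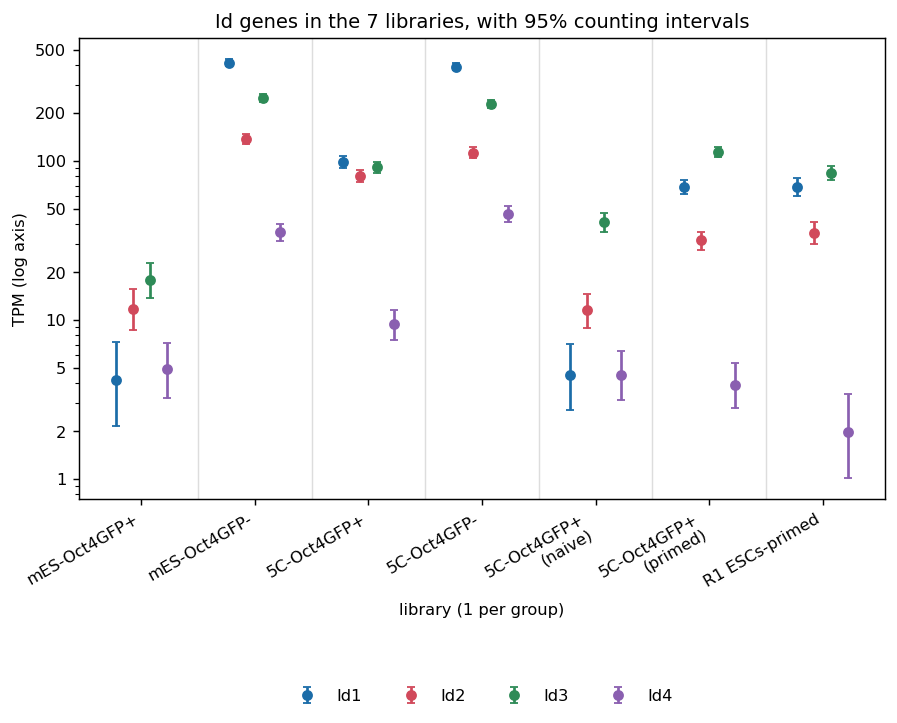
TPM (log axis) of *Id1*, *Id2*, *Id3* and *Id4* in each of the 7 libraries, with points for the single library of a group and bars for the exact Poisson 95% counting interval. *Id1* runs from 4.19 TPM for mES-Oct4GFP+ to 414 TPM for mES-Oct4GFP- cells, and *Id4* is lowest in R1 ESCs-primed at 1.97 TPM.

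Over the 7 libraries, log2(TPM + 1) of *Id1* had a Pearson r of 0.97 with *Id2* and 0.96 with *Id3*, and *Id2* had 0.91 with *Id3*. *Id4* had 0.69, 0.77 and 0.68 with *Id1*, *Id2* and *Id3*. These are descriptions over 7 libraries that share the 2 media and the sort. On the log2(TPM + 1) scale *Id1* ranged over 6.32, more than 98.8% of the 17733 genes with at least 1 TPM in any library, whose median range was 1.55. The ranges of *Id4* (4.0), *Id3* (3.72) and *Id2* (3.46) were at the 92.1, 90.2 and 88.1 percentiles.

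Summed over the 4 genes, *Id* transcripts were at 834 TPM for mES-Oct4GFP-, 778 TPM for 5C-Oct4GFP-, 280 TPM for 5C-Oct4GFP+, 219 TPM for 5C-Oct4GFP+ (primed), 190.4 TPM for R1 ESCs-primed, 61.7 TPM for 5C-Oct4GFP+ (naive) and 38.8 TPM for mES-Oct4GFP+ cells. The makeup of the sum also differed. *Id1* gave 49.7% and 50.2% of it in mES-Oct4GFP- and 5C-Oct4GFP- cells, between 31.5% and 36.0% in 5C-Oct4GFP+ cells and both primed libraries, and 10.8% and 7.31% in mES-Oct4GFP+ and naive cells. In mES-Oct4GFP+ and naive cells *Id3* was the largest part, with 46.1% and 66.7%. The E proteins that ID proteins bind, *Tcf3*, *Tcf4* and *Tcf12*, summed to between 169 and 467 TPM. The *Id* sum divided by the E protein sum was 0.20 in mES-Oct4GFP+ and 0.36 in naive cells, 0.68 and 0.88 in R1 ESCs-primed and 5C-Oct4GFP+ (primed) cells, 1.26 in 5C-Oct4GFP+ cells, 1.67 in 5C-Oct4GFP- cells and 2.87 in mES-Oct4GFP- cells.

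**Figure D2:**
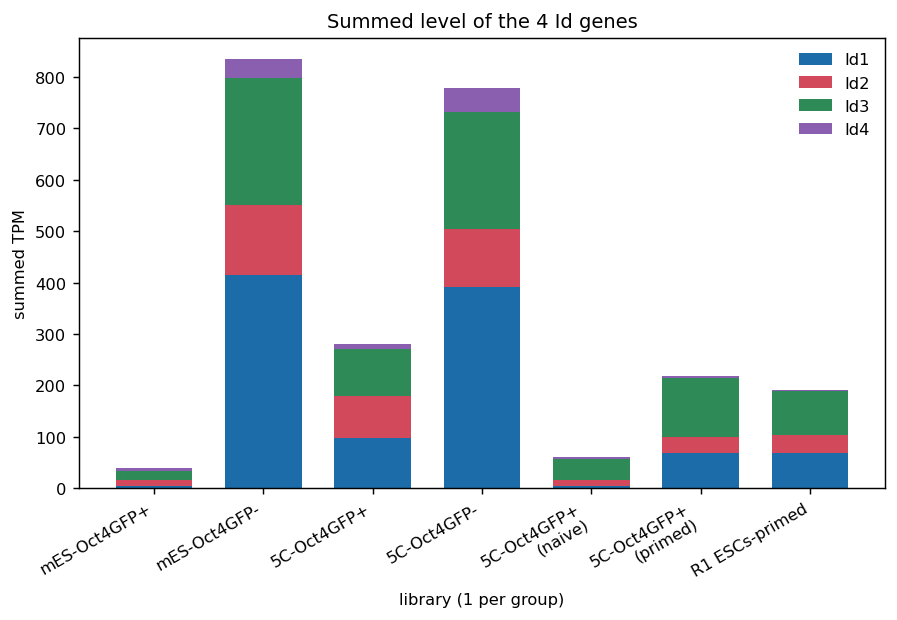
Summed TPM of the 4 *Id* genes in each library (bars, 1 library per group, stacked by gene). The sum is 834 TPM for mES-Oct4GFP- and 38.8 TPM for mES-Oct4GFP+ cells, and *Id1* is the largest part in both Oct4GFP- libraries.

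The ligand genes followed other orders. *Bmp4* (ENSMUSG00000021835, chromosome 14, 46383520 to 46390669) was at 27.3 TPM for mES-Oct4GFP-, 14.1 TPM for 5C-Oct4GFP+, 9.86 TPM for 5C-Oct4GFP+ (naive), 8.44 TPM for R1 ESCs-primed, 4.4 TPM for mES-Oct4GFP+, 4.18 TPM for 5C-Oct4GFP- and 2.71 TPM for 5C-Oct4GFP+ (primed) cells. The 3 lowest libraries had between 22 and 30 reads on it, and neighbours among them did not differ beyond counting error, nor did the naive cells and R1 ESCs-primed. The ratio of highest to lowest was 10.1 (6.85 to 15.3). Over the 7 libraries *Bmp4* had a Pearson r of 0.28 with *Id1*.

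*Bmp7* (ENSMUSG00000008999, chromosome 2, 172868012 to 172940321), which encodes a second ligand of the pathway, was at 20.1 TPM for R1 ESCs-primed, 17.5 TPM for 5C-Oct4GFP+ (primed), 9.10 TPM for mES-Oct4GFP+, 8.08 TPM for 5C-Oct4GFP-, 7.37 TPM for mES-Oct4GFP-, 5.21 TPM for 5C-Oct4GFP+ and 5.00 TPM for 5C-Oct4GFP+ (naive) cells. Both primed libraries stood above the rest, and the highest to lowest ratio was 4.02 (3.14 to 5.18).

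*Bmpr1a* (ENSMUSG00000021796, chromosome 14, 34410734 to 34503341) encodes a type I receptor, and it was the steadiest and, among the genes other than *Id1* to *Id3*, the most abundant in every library except that *Id4* came near it in 5C-Oct4GFP- cells. It was at 62.1 TPM for mES-Oct4GFP-, 57.5 TPM for 5C-Oct4GFP+ (primed), 54.3 TPM for R1 ESCs-primed, 47.1 TPM for 5C-Oct4GFP-, 38.7 TPM for mES-Oct4GFP+, 30.5 TPM for 5C-Oct4GFP+ and 24.4 TPM for 5C-Oct4GFP+ (naive) cells, a ratio of 2.55 (2.31 to 2.81) from end to end. Its range of 1.31 on the log2(TPM + 1) scale was at the 40.0 percentile of all genes.

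The 2 inhibitors among the 9 genes had low levels. *Smad6* (ENSMUSG00000036867, chromosome 9, 63953076 to 64022059), an inhibitory SMAD that is itself a BMP target, was at 24.3 TPM for mES-Oct4GFP- cells, 7.67 TPM for 5C-Oct4GFP+ (primed), 5.92 TPM for R1 ESCs-primed, 4.46 TPM for 5C-Oct4GFP+ (naive), 3.73 TPM for mES-Oct4GFP+, 3.56 TPM for 5C-Oct4GFP- and 2.42 TPM for 5C-Oct4GFP+ cells. One library stood apart, and each pair of neighbours below it had an interval that held 1. *Bambi* (ENSMUSG00000024232, chromosome 18, 3507923 to 3516404), a pseudoreceptor without a kinase, was at 10.8 TPM for 5C-Oct4GFP+ (primed), 10.7 TPM for mES-Oct4GFP-, 9.37 TPM for R1 ESCs-primed, 5.99 TPM for 5C-Oct4GFP-, 4.22 TPM for 5C-Oct4GFP+ (naive), 3.93 TPM for mES-Oct4GFP+ and 3.56 TPM for 5C-Oct4GFP+ cells. Neighbours within its 3 highest libraries did not differ beyond counting error, nor did neighbours within its 3 lowest, and 5C-Oct4GFP- cells stood apart from both. *Bambi* has an annotated pseudogene copy, which was not analysed here, so its level is uncertain where reads match both.

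**Figure D3:**
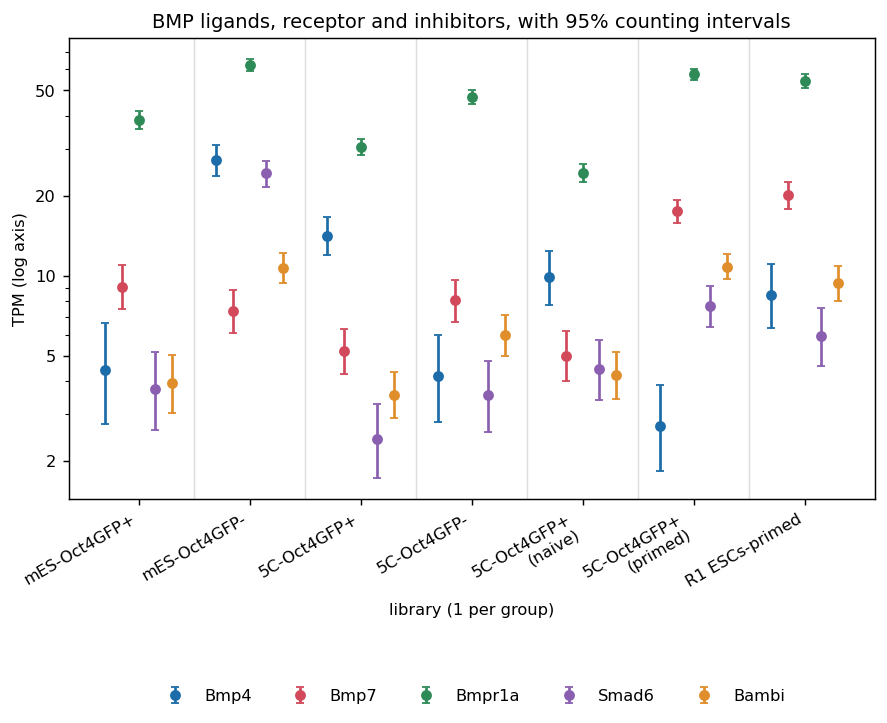
TPM (log axis) of *Bmp4*, *Bmp7*, *Bmpr1a*, *Smad6* and *Bambi* in each library, with points for the single library of a group and bars for the exact Poisson 95% counting interval. *Smad6* stands at 24.3 TPM for mES-Oct4GFP- cells and at most 7.67 TPM elsewhere, and *Bmp7* is highest in the 2 primed libraries.

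The question of the first comparison is how the medium of reprogramming bears on the Oct4GFP+ cells it yields. Among the Oct4GFP+ cells, 4 members were called higher with 5C than with mES medium, *Id1*, *Id2*, *Id3* and *Bmp4*, and none was called lower. By the same rule, 13.7% of 15196 genes were called higher, 13.5% lower and 27.2% in either direction. *Id1* had a ratio of 23.4 (13.3 to 45.7), *Id2* 6.85 (5.08 to 9.43), *Id3* 5.10 (3.94 to 6.71) and *Bmp4* 3.21 (2.04 to 5.28). *Id4* had a ratio of 1.91 (1.22 to 3.08) and was under the threshold. The receptor and the inhibitors were not on the side of the *Id* genes. *Bmp7* was lower in 5C-Oct4GFP+ cells, with a mES to 5C ratio of 1.75 (1.33 to 2.30), as was *Bmpr1a* with 1.27 (1.14 to 1.41). The same ratio was 1.54 (0.96 to 2.48) for *Smad6* and 1.10 (0.80 to 1.52) for *Bambi*, both intervals holding 1. The fibroblast markers summed to 12.9 TPM for 5C-Oct4GFP+ and 11.2 TPM for mES-Oct4GFP+ cells, and the primitive endoderm markers to 3.13 and 10.2 TPM. Some single markers were called higher beside the *Id* genes, namely *Thy1* (5.16 against 0.72 TPM), *Eomes* (7.49 against 0.60), *Krt7* (2.78 against 0.75), *Kdr* (4.04 against 0.82) and *Tek* (22.7 against 7.49). *Col1a1*, *Dab2*, *Cdx2* and *Pecam1* were called lower. The paper used *Pecam1* as a naive marker. Of the primed markers, *Otx2* (189 against 0.41 TPM), *Fgf5* (11.7 against 0.12) and *Dnmt3b* (366 against 85.8) were called higher and *T* lower. Of the naive markers, *Tfcp2l1* (29.05 against 194 TPM) and *Prdm14* were called lower and *Klf4* higher. *Nanog* was also called lower. The part of all these markers in the result was not tested.

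In the Oct4GFP- cells *Bmp4* and *Smad6* were called lower with 5C medium, and no member was called higher. Of 15859 genes, 10.1% were called lower, 9.68% higher and 19.8% in either direction. The mES to 5C ratio was 6.53 (4.44 to 9.91) for *Bmp4* and 6.83 (4.98 to 9.60) for *Smad6*. The *Id* genes were close, at a mES to 5C ratio of 1.06 (0.99 to 1.14) for *Id1* and 1.09 (1.00 to 1.18) for *Id3*. *Id2* had 1.21 (1.09 to 1.36), and *Id4* was higher with 5C medium at 1.31 (1.10 to 1.55). *Bmp7* had a 5C to mES ratio of 1.10 (0.84 to 1.42). *Bmp4* and *Smad6* were lower beside primitive endoderm, trophoblast and fibroblast markers. Of these, 5 of 5, 5 of 5 and 6 of 8 were also called lower. The fibroblast marker *Thy1* was called higher with 5C medium, at 53.3 against 8.73 TPM. The part of these markers in the result was not tested.

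Between the 2 sorted fractions of mES medium, 7 members were called lower in mES-Oct4GFP+ cells and none higher. Of 16294 genes, 28.8% were called lower, 17.9% higher and 46.7% in either direction. The mES-Oct4GFP- to mES-Oct4GFP+ ratio was 98.8 (56.5 to 192) for *Id1*, 13.8 (10.8 to 18.1) for *Id3*, 11.6 (8.63 to 15.9) for *Id2* and 7.23 (4.82 to 11.3) for *Id4*. It was 6.20 (3.99 to 10.1) for *Bmp4*, 6.52 (4.61 to 9.48) for *Smad6* and 2.72 (2.06 to 3.63) for *Bambi*. The ligand *Bmp7* and the receptor *Bmpr1a* were not called, at mES-Oct4GFP+ to mES-Oct4GFP- ratios of 1.23 (0.94 to 1.62) and 0.62 (0.56 to 0.69). All 8 fibroblast markers and all 5 primitive endoderm markers were called lower in the same comparison, and the part of such cells in the result was not tested.

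In 5C medium the same contrast was past the threshold for 3 of the 4 *Id* genes. *Id1*, *Id3* and *Id4* were called lower in 5C-Oct4GFP+ than in 5C-Oct4GFP- cells, with ratios in favour of the negative cells of 3.98 (3.59 to 4.41), 2.50 (2.26 to 2.77) and 4.96 (3.89 to 6.37). Of 15675 genes, 22.6% were called lower, 8.45% higher and 31% in either direction. *Id2* had 1.40 (1.24 to 1.57). *Bmp4* went the other way and was called higher in the Oct4GFP+ cells, at 3.38 (2.27 to 5.18). These 2 contrasts share no library with each other, though each library also enters a comparison of the media. With 1 library per group the difference between the contrasts was not tested. Of the fibroblast markers, 6 of 7 tested were called lower in 5C-Oct4GFP+ cells, as were 3 of 4 primitive endoderm markers, and their part was not tested.

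The conversions set the sorted 5C-Oct4GFP+ library against separate libraries of such cells after culture in naive or primed medium. The paper reports that the cells in primed medium no longer showed GFP. In 5C-Oct4GFP+ (naive) cells, *Id1*, *Id2* and *Id3* were called lower than in 5C-Oct4GFP+ cells, by 21.8-fold (13.8 to 36.5), 7.03-fold (5.43 to 9.23) and 2.22-fold (1.89 to 2.62). Of 14863 genes, 17.5% were called lower, 10% higher and 27.5% in either direction. *Id4* was 2.07-fold lower (1.37 to 3.18) and just under the threshold on the log2(TPM + 1) scale, at -0.91. No member was called higher. *Bmp7* and *Bambi* differed by less than counting error, while *Smad6* was at a naive to 5C ratio of 1.84 (1.22 to 2.82). Called lower beside the *Id* genes were 2 of 5 fibroblast markers tested (*Thy1*, *Twist1*) and 2 of 3 trophoblast markers (*Eomes*, *Krt7*). So were 2 of 3 endothelial markers (*Kdr*, *Tek*), while *Cdx2* was called higher. The primed markers *Otx2*, *Fgf5* and *Dnmt3b* were called lower and *T* higher. Of the naive markers, *Tfcp2l1* was called higher and *Klf4* lower. The part of all these markers was not tested.

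In 5C-Oct4GFP+ (primed) cells, 3 members were called higher than in 5C-Oct4GFP+ cells and 3 lower, beside 13.7% and 16.1% of 15067 genes and 29.7% in either direction. *Bmp7*, *Smad6* and *Bambi* were higher, with ratios of 3.36 (2.71 to 4.20), 3.17 (2.21 to 4.65) and 3.04 (2.42 to 3.83). *Bmp4*, *Id2* and *Id4* were lower, by 5.21-fold (3.5 to 8.0), 2.56-fold (2.19 to 2.99) and 2.40-fold (1.63 to 3.6). *Id1* was 1.42-fold lower (1.24 to 1.63), and *Id3* was at a ratio of 1.25 (1.12 to 1.40), both under the threshold. Here 7 of 8 fibroblast markers, 4 of 4 primitive endoderm markers tested and 5 of 7 primed markers (*T*, *Foxa2* and *Cer1* among them) were called higher. Their part was not tested. Both conversions are set against the same 5C-Oct4GFP+ library.

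Set against each other, the naive and primed cells of 5C origin differed in 7 members, 1 higher and 6 lower in naive cells. Of 15249 genes, 16.7% were called higher, 22.2% lower and 38.9% in either direction. *Id1* was 15.3-fold higher in primed cells (9.66 to 25.7), *Bmp7* 3.50-fold (2.76 to 4.48), *Id3* 2.78-fold (2.38 to 3.26), *Id2* 2.75-fold (2.08 to 3.68), *Bambi* 2.56-fold (2.04 to 3.24) and *Bmpr1a* 2.36-fold (2.14 to 2.59). *Bmp4* was higher in naive cells, by 3.64-fold (2.35 to 5.76). *Id4* had a naive to primed ratio of 1.16 (0.71 to 1.89). Also called lower in naive cells were 7 of 8 fibroblast markers, 4 of 4 primitive endoderm markers tested and 6 of 7 primed markers (*T*, *Foxa2* and *Cer1* among them). Their part was not tested.

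The 2 kinds of primed cells, from 5C-Oct4GFP+ cells and from R1 ESCs, had the fewest members called of the 8 comparisons made. The share of all genes called was also the smallest there. *Bmp4* alone was called, 3.11-fold lower (1.96 to 5.05) in 5C-Oct4GFP+ (primed) cells from 30 reads against 53. Of 14600 genes, 5.09% were called lower, 2.3% higher and 7.39% in either direction. *Id1* had a ratio of 1.01 (0.85 to 1.19), *Bmpr1a* 1.06 (0.98 to 1.15) and *Bambi* 1.15 (0.96 to 1.39). *Id3* was higher in the cells of 5C origin, at 1.36 (1.20 to 1.54), and *Id4* was at 1.98 (1.02 to 4.17) from 39 reads against 12. Fibroblast markers were lower in them, with 6 of 8 called.

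**Figure D4:**
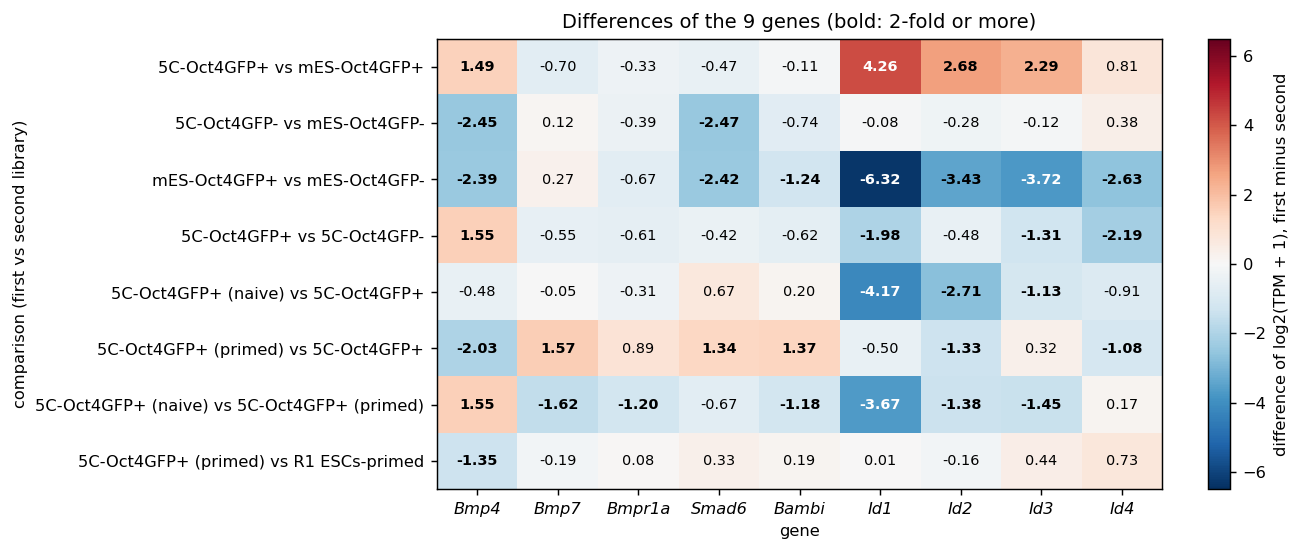
Difference of log2(TPM + 1), first library minus second, for each of the 9 genes (columns) in each of the 8 comparisons (rows), with 1 library per group and bold figures at 2-fold or more. *Id1* spans -6.32 to 4.26, and *Bmp4* changes sign between the sorted fractions of mES medium (-2.39) and of 5C medium (1.55).

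The rest of the pathway was read from 58 other genes grouped by role. In 5C-Oct4GFP+ against mES-Oct4GFP+ cells, 6 of the 34 tested were called higher and 2 lower, with a median difference of 0.04 beside -0.06 over all genes tested, of which 13.7% were called higher and 13.5% lower. *Skil*, a SMAD corepressor, was higher at 44.4 against 9.42 TPM, and the co-receptor *Rgma* was lower at 4.24 against 25.2 TPM. In the Oct4GFP- cells 3 of 50 were higher with 5C medium and 18 lower, with a median of -0.44 beside 0.03 (all genes, 9.68% higher and 10.1% lower). Between the fractions of mES medium 2 of 49 were higher in Oct4GFP+ cells and 33 lower (median -1.53, beside -0.15, with 17.9% and 28.8% of all genes). In 5C medium 4 of 44 were higher and 22 lower (median -1.04, beside -0.25, with 8.45% and 22.6%). After the naive conversion 1 of 33 was higher and 9 lower (median -0.53, beside -0.10, with 10% and 17.5%), and after the primed conversion 10 of 38 were higher and 4 lower (median 0.61, beside 0.06, with 13.7% and 16.1%). Naive against primed cells gave 4 of 38 higher and 24 lower (median -1.19, beside -0.14, with 16.7% and 22.2%), and the primed cells of 5C origin against R1 ESCs-primed gave 1 of 42 higher and 3 lower (median -0.47, beside -0.03, with 2.3% and 5.09%).

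Among the ligands outside the 9 genes, *Bmp2* was at 16.0 TPM for mES-Oct4GFP-, 17.6 TPM for 5C-Oct4GFP+ (primed) and 10.2 TPM for R1 ESCs-primed, and at most 1.88 TPM in the other 4 libraries. *Bmp6* was at 15.9 TPM for mES-Oct4GFP- cells and at most 1.80 TPM elsewhere. *Gdf3*, a TGF-beta family ligand of pluripotent cells, had the opposite distribution, with 130 TPM in naive, 103 TPM for mES-Oct4GFP+ and 94.5 TPM for 5C-Oct4GFP+ cells. It was at 24.5 TPM for 5C-Oct4GFP-, 9.81 TPM for R1 ESCs-primed, 8.61 TPM for mES-Oct4GFP- and 0.14 TPM for 5C-Oct4GFP+ (primed) cells. Among the SMADs that carry the signal, *Smad1* was at 8.55 and 24.5 TPM for 5C-Oct4GFP+ and 5C-Oct4GFP- cells and *Smad5* at 18.7 and 41.7 TPM, both called lower in the Oct4GFP+ cells. *Smad9* was at 6.54 TPM for mES-Oct4GFP- cells and at most 0.40 TPM elsewhere. *Smad7*, the other inhibitory SMAD, lay between 23.3 and 33.9 TPM in 6 libraries and at 8.12 TPM for 5C-Oct4GFP- cells.

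*Cer1*, which binds BMP and Nodal ligands, was at 497 TPM for 5C-Oct4GFP+ (primed) and 178.5 TPM for R1 ESCs-primed, 33.2 TPM for mES-Oct4GFP- cells and at 3.38 TPM or less elsewhere, and listed at 0 in 5C-Oct4GFP+ cells. *Chrd*, which encodes Chordin, was at 84.0 and 58.0 TPM in the primed libraries in the same order, 3.57 TPM for 5C-Oct4GFP+ and 0.44 TPM in naive cells. Of 9 antagonists tested between naive and primed cells of 5C origin, 8 were called lower in naive cells and none higher, beside 22.2% and 16.7% of all genes tested. The target list holds 10 genes beside the *Id* genes, and a response of each to BMP was not measured here. Of these genes, 6 were tested between 5C-Oct4GFP+ and mES-Oct4GFP+ cells. One was called higher, *Zfp423* at 16.3 against 1.99 TPM, and one lower, *Msx2* at 0.29 against 2.68 TPM. In the Oct4GFP- cells 5 of 9 targets were called lower with 5C medium and none higher, beside 10.1% and 9.68% of all genes tested, among them *Dusp9* at 9.11 against 42.2 TPM.

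Genes with the pattern most like each member were sought by Pearson r of log2(TPM + 1) over the 7 libraries, among 8343 genes with a highest value of at least 10 TPM and a range of at least 1 on that scale. For *Id1* they were *Hdac11*, *Ier5* and *Zfhx3*, each with an r of 0.995 or 0.996, and 248 genes reached 0.95. For *Id2* they were *Per1*, *Jun* and *Rgs12* (0.995, 0.994 and 0.992). *Jun*, an immediate early gene, was at 294 and 337 TPM for mES-Oct4GFP- and 5C-Oct4GFP- cells, 108 TPM for 5C-Oct4GFP+ cells and 2.51 TPM in naive cells. *Iqce*, *Cflar* and *Ifi27l2a* were nearest to *Id3* (0.992, 0.992 and 0.989) and *Pnrc1*, *Gramd2* and *Slc6a6* to *Id4* (0.989, 0.988 and 0.987). *Bambi* was nearest to *Chst15*, *Bmp2* and *Pga5* (0.996, 0.996 and 0.988). *Smad6* was nearest to *Apoa1*, *Pyy* and *Rbp4* (0.973, 0.969 and 0.968). *Apoa1*, which encodes an apolipoprotein of liver, gut and yolk sac, was at 61.3 TPM for mES-Oct4GFP- cells and at most 2.31 TPM elsewhere. *Bmpr1a* was nearest to *Cldn12*, *Zfyve9* and *Snx6* (each 0.992), and *Bmp7* to *Arl16*, *Wnt3* and *Tada2b* (0.988, 0.987 and 0.981). *Bmp4* had no gene at 0.95, and its nearest were *Myl4*, *Aplp1* and *Myl7* (0.910, 0.887 and 0.872).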

How the data were processed

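TRIzol RNA of 7 groups, named by the sample titles, gave 1 TruSeq library each, read on a MiSeq. Per the labels, Bowtie, RSEM and mm10 were used (versions not given in the sources used here), and reads were aligned to a transcriptome. For each Ensembl gene the authors deposited an expected count, the reads that RSEM assigned to it. The authors' TPM is that count over effective length, scaled to a fixed total per library, and the deposited FPKM is scaled to mapped fragments instead. The deposited effective length, in bases, was used to turn counting intervals into TPM.

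Differences were taken on log2(TPM + 1), a scale that understates changes of low genes. With no replicates no test was made. Alternatives changed 1 choice at a time (a pseudocount of 0.1, no minimum or 5 TPM, median-of-ratios scaling, FPKM). Symbols and coordinates came from GENCODE M21 (GRCm38, the assembly of mm10), promoters from RefSeq. Overlapping genes were not separated by strand, since the counting is not stated to use it.

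Named genes were all 9 members, for each other list up to 2 called genes per direction and comparison as far as the list is described, the 3 genes most like each member, and the cell type markers. Members and lists were chosen with earlier results of these data known. The interval and call code was tested on simulated data. Intervals came from scipy 1.17.1, tables from pandas 2.3.3 with numpy 2.4.6 under Python 3.11.15, and plots from matplotlib 3.10.9.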

Additional observations from a re-analysis of the deposited data

Results flagged for a closer look

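*Bmp4* had opposite differences in the 2 settings of the same contrast. Comparing 5C with mES medium, the difference of log2(TPM + 1) was 1.49 in Oct4GFP+ cells and -2.45 in Oct4GFP- cells, each past 2-fold. Comparing Oct4GFP+ with Oct4GFP- cells, it was -2.39 in mES medium and 1.55 in 5C medium. Both statements rest on the same 4 libraries, with 22 reads on *Bmp4* in the GFP+ and 215 reads in the GFP- cells of mES medium, and 148 and 30 reads in those of 5C medium. The difference between the settings was not tested, since each group has 1 library. In mES-Oct4GFP- cells, where *Bmp4* was highest, the primitive endoderm markers summed to 167 TPM and the trophoblast markers to 196 TPM. Of the latter, *Krt7* alone gave 176.5 TPM. In 5C-Oct4GFP- cells the 2 sums were 18.5 and 9.43 TPM, and the part of these markers in the result was not tested.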

How the results depend on the processing

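None of the called differences of the 9 genes turned its sign under a pseudocount of 0.1, median-of-ratios scaling or FPKM. This outcome was fixed in advance and is no measure of robustness. A pseudocount cannot turn a sign, and each rescaling moves all genes of a library by a common factor, far below 2-fold between libraries. Of all 216 values of the 9 genes, called or not, 213 moved by less than the half-width of the counting interval and 3 moved by more, all between the fractions of 5C medium under median-of-ratios scaling (-0.45 for *Bmpr1a*, -1.82 for *Id1* and -1.16 for *Id3*). The number of members called changed in 2 cases, both by *Id4*, to 4 in naive against 5C-Oct4GFP+ cells with a pseudocount of 0.1 and to 5 in primed against 5C-Oct4GFP+ cells with FPKM. For the 58 other pathway genes, a pseudocount of 0.1 called 13 in place of 8 in 5C-Oct4GFP+ against mES-Oct4GFP+ cells and 9 in place of 4 between the 2 kinds of primed cells. A minimum of 5 TPM called 5 in place of 8 in 5C-Oct4GFP+ against mES-Oct4GFP+ cells and 6 in place of 10 in naive against 5C-Oct4GFP+ cells, since fewer genes were tested. Median-of-ratios scaling moved the median of all genes by 0.14 on the log2 scale between the fractions of 5C medium and by 0.13 between naive and primed cells, and FPKM moved it by 0.12 between the fractions of mES medium. No replicate could be left out, and differences between cultures are unknown. No paired analysis was possible because each group has 1 library. Depth limits *Id1* in mES-Oct4GFP+ and naive cells (12 and 19 reads) and *Id4* in R1 ESCs-primed (12 reads).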
